A study of Mus musculus with 17 samples.

Results

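Untreated AB12 tumors collected 14 days (d14, advanced phase) after cell injection were compared with untreated AB12 tumors collected at 6 days (d6, early phase). AB12 is a mouse mesothelioma cell line, and mesothelioma is a cancer of the mesothelium, the cell layer that lines the body cavities. The 6 libraries were chosen by their labels alone, 3 from each day, out of 17 libraries in the series. The other untreated group, 5 tumors collected at day 10 (d10, intermediate phase), serves here only to place the levels in between, and the tumors given anti-CTLA4 enter 1 alternative fit. The authors listed 55450 genes, 21951 of them protein-coding, and 14068 of the latter had enough reads to be tested.

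All tumors grew in the peritoneum of BALB/c mice, 8 weeks old per the study's methods, after injection of 100000 AB12 cells. Neither group received treatment, and both share the cell line, strain and injection site, so day of collection is the labelled difference. The study's methods give at least 3 independent mice per group. AB12 is a single transplanted line, so the 3 tumors of a day are repeats of 1 cancer in several hosts. RNA came from whole tumor tissue, so tumor cells, stroma, infiltrating leukocytes and adjoining host tissue contribute to every value.

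Type I interferons are released when a cell senses foreign or misplaced nucleic acid, and they switch on a shared set of antiviral genes in the cells around it. Eosinophils, which belong to type 2 immunity, follow eotaxin chemokines into tissue and live on interleukin-5, whereas cytotoxic lymphocytes kill through perforin and granzymes. The peritoneal cavity holds its own resident macrophages, and a growing solid tumor recruits monocytes, vessels and matrix-producing cells.

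The labelled tissue was checked against its markers. The epithelial keratin 8 gene (Krt8) was abundant at both days. It stood at 725, 878 and 772 CPM (read counts scaled to a common library size) at d6 and at 866, 786 and 896 CPM at d14. The mesothelial genes Msln and Wt1, given further below, stood lower than Krt8 at both days, Wt1 far lower. The T cell receptor chain Cd3e stood at 13.6, 12.6 and 14.4 CPM at d6 and at 30.2, 21.5 and 35.6 CPM at d14, against 52.9 to 63.6 CPM over the d10 tumors. T cell content was thus low at both days beside d10, but for Cd3e the d14 tumors lay above the d6 tumors. The log2 fold change of Cd3e was 1.11 ± 0.17 (SE; adjusted p = 0.0009, edgeR's quasi-likelihood test with Benjamini-Hochberg adjustment), and it was 0.95 without d14 replicate 3 and 0.96 with a term for library sets (explained below), both under the 2-fold limit. Ctla4 had counts of 0, 0 and 0 at d6 and 2, 0 and 1 at d14 and was not tested. A processed pseudogene, Rpl18-ps1, overlaps it, and how shared reads were assigned is not given in the sources used here, so these counts do not show whether it was expressed.

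Depth was 46371577 to 52814004 counts per library at d6 and 72413343 to 96646208 at d14. The libraries also differed in ways that go with day. Grouped by their pseudogene and small RNA levels into 2 sets, the d6 libraries fell with d10 replicates 1 to 3, and the d14 libraries with d10 replicates 4 and 5 and all treated tumors. With 3 sets the d14 libraries stood apart from all untreated d10 libraries as well. The study used 2 sequencers with different read lengths, and which library ran on which is not given in the sources used here, so library set and day cannot be told apart where the sets follow the day. The study's methods also report removing genes with a batch effect between sequencing projects. That removal was not made here, so such genes may be among those tested and called. Change also followed gene length: the median log2 fold change was -0.33 in the shortest of 5 equal length classes and 0.32 in the longest. The library set term left -0.40 and 0.27, whereas d10 tumors of set 2 against set 1 gave 0.01 and 0.00 and had 567 of 14247 protein-coding genes called by the limits given below (3.98%). Beside results that these facts touch, 2 further values are given below. One comes from a fit over the 11 untreated tumors with a term for the 2 library sets, the other from a fit with a gene length offset. The set term is estimated from the d10 tumors alone, replicates 1 to 3 against replicates 4 and 5. It therefore cannot remove what is particular to the d14 libraries.

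**Figure D1:**
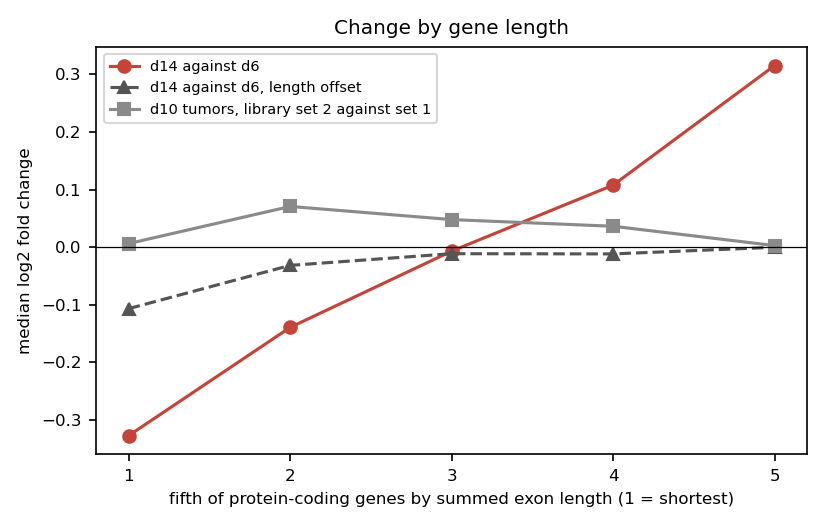
Median log2 fold change (vertical axis) of protein-coding genes in 5 equal classes of summed exon length (horizontal axis, 1 is the shortest), for d14 against d6, the same with a length offset, and d10 tumors of library set 2 against set 1. The d14 against d6 line climbs from -0.33 to 0.32, and the d10 line stays between 0.00 and 0.07.

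Between d6 and d14, 1979 of 14068 protein-coding genes passed both limits, an adjusted p below 0.05 and a change above 2-fold, which is 14.1% of those tested. At d14 1079 of them were higher (7.67%) and 900 were lower (6.4%), around a median log2 fold change of 0.00 over all tested genes. A gene that passed is called higher or lower from here on. The change was above 4-fold for 243 of the higher and 265 of the lower genes. The 3 tumors of one day lay wholly above those of the other for 8739 genes (62.1%), with d14 above for 30.3% and below for 31.9%, and for 1961 of the 1979 called genes. For 843 of the 1079 higher genes and 721 of the 900 lower genes the d10 median lay between d6 and d14. The first principal component held 75.5% of the variance and separated the days. With the library set term 635 of the 1079 higher genes (58.9%) and 505 of the 900 lower genes (56.1%) were called in the same direction, and 6 were called in the opposite one.

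The 10 largest rises, among called genes with a mean of at least 10 CPM and no overlap between the days, were led by 4 granzymes. These serine proteases of cytotoxic lymphocytes are Gzmf, Gzmg, Gzmd and Gzme, neighbours in one cluster on chromosome 14. Gzmf (14:56205263-56211417, minus strand, GRCm38) rose from 0.444, 0.316 and 0.201 CPM at d6 to 246, 188 and 137 CPM at d14. Its log2 fold change was 9.22 ± 0.32 (SE, n = 3 per day; adjusted p = 1.5e-06, edgeR). Gzmg rose by 6.97, Gzmd by 5.67 and Gzme by 4.87 on the log2 scale. These 4 genes are close copies of each other, so how the reads divide among them is uncertain. At d10 the levels already ranged from 36.2 to 325 CPM for Gzmf and from 28.4 to 371 CPM for Gzmg.

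The other 6 leading rises were spread over several functions. Havcr2, which encodes the inhibitory receptor TIM-3, went from 6.97, 6.75 and 5.37 CPM to 55.9, 48.1 and 66.5 CPM (log2 fold change 3.16 ± 0.16, adjusted p = 1.1e-05). The proliferins Prl2c2 and Prl2c3, growth factor genes of the prolactin family, rose by 2.85 and 2.69 on the log2 scale, and they too are close copies. Slurp1, a small secreted protein of epithelia, rose from 5.11 to 8.03 CPM at d6 to 52.9 to 76.8 CPM at d14. The annexin Anxa10 and the actin regulator Avil rose by 3.76 and 2.90, with Anxa10 higher in d14 replicate 2 (28.9 CPM) than in the other two (14.3 and 13.3 CPM).

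The 10 largest falls, chosen by the same rule, included 5 genes tied to eosinophils or to type 2 immunity. Retnla, a secreted protein of macrophages exposed to interleukin-4 (16:48842551-48844461, plus strand), dropped from 42, 21.9 and 23.9 CPM to 0.366, 0.104 and 0.0399 CPM, a log2 fold change of -7.51 ± 0.54 (adjusted p = 3.7e-05). Alox15, the 12/15-lipoxygenase of eosinophils and resident peritoneal macrophages, dropped from 224, 338 and 294 CPM to 10.5, 3.11 and 3.62 CPM (-5.65 ± 0.46, adjusted p = 5.3e-05). The eosinophil ribonuclease Rnase2a fell by 4.57, the eotaxin receptor Ccr3 by 4.25 and the eotaxin Ccl24 by 4.21 on the log2 scale. The remaining 5 were the chloride channel regulator Clca3b (-5.45), the myeloid secreted protein Retnlg (-4.59), the vitamin D binding protein Gc (-4.23), the interferon-inducible Ifi206 (-3.54) and the retinol transporter Stra6 (-3.46). Absence of overlap between the days was a condition for choosing these 20 leading genes. All 20 were called in the same direction with the library set term and with the length offset.

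**Figure D2:**
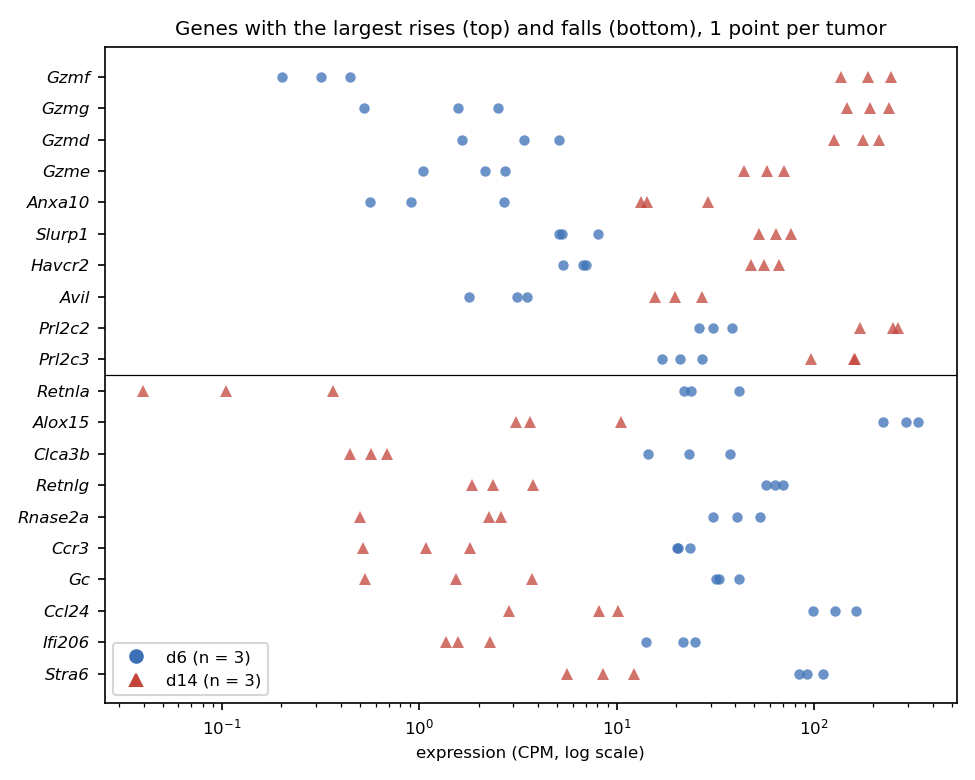
Expression in CPM on a log axis of the 10 genes with the largest rises (upper block) and the 10 with the largest falls (lower block), 1 point per tumor, 3 at d6 and 3 at d14. Gzmf goes from below 1 CPM to 137 to 246 CPM, and Alox15 from 224 to 338 CPM to 3.11 to 10.5 CPM.

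Type I interferon stimulated genes fell together. Of 33 tested members 27 were lower at d14 and none were higher, the largest share called lower among the 46 gene lists, and in all 33 every d14 tumor lay below every d6 tumor. The median log2 fold change was -1.53, and it stayed between -1.91 and -1.45 over all 17 alternatives, with 27 or 28 members lower in each. As the mixed tissue was measured, fewer cells of a type and less RNA per cell cannot be told apart here or in the results that follow. The promoter sequences of 4 of the members with the deepest falls are shown because a shared motif marks them. They run from 250 bases before to 50 after the start site (RefSeq, GRCm38.p6), with matches to GAAANNGAAA on either strand in capitals, the core of the element through which interferon-activated transcription factors bind.

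Isg15 promoter, chr4:156200769-156201068, minus strand: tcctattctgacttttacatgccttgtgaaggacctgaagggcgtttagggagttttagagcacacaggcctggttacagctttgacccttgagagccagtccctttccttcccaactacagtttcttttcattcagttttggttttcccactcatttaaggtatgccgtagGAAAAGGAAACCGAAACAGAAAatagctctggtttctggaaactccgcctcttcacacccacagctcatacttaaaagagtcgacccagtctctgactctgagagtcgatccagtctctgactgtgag
Ifit1 promoter, chr19:34640639-34640938, plus strand: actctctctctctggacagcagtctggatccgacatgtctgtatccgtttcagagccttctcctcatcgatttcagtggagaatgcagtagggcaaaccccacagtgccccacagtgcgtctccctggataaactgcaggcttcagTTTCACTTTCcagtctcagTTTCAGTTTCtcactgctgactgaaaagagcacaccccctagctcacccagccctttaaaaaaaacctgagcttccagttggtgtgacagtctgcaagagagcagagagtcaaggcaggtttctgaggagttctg
Ifit3b promoter, chr19:34607707-34608006, plus strand: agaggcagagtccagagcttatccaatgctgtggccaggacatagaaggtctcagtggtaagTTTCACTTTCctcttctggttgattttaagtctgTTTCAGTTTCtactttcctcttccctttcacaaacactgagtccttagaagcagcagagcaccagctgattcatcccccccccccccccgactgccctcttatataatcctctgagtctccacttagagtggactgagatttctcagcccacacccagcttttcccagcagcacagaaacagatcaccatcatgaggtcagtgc
Rsad2 promoter, chr12:26456403-26456702, minus strand: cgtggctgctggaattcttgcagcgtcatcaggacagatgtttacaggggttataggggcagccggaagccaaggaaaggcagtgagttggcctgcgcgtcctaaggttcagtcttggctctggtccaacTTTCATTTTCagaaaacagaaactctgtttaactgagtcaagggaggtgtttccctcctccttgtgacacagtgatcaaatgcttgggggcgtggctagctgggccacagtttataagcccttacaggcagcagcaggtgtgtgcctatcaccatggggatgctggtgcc

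Isg15 holds 3 overlapping matches, Ifit1 and Ifit3b hold 2 each and Rsad2 holds 1. The 4 were chosen for holding a match. A promoter sequence was found for 24 listed genes, and 13 of them (54.2%) hold a match. Among the 21 of these called lower the share was similar, at 11 (52.4%). Of all 27025 genes with a promoter of that length 3.99% hold one (3.44% of 32851 promoters). Among called protein-coding genes with a promoter, 63 of 665 lower genes (9.47%) and 29 of 802 higher genes (3.62%) hold one, against 3.91% of all tested ones. A match describes the letters only, and a promoter without one was not examined for other elements.

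The deepest falls were those of Ifit3b, Rsad2 and Usp18. Rsad2, the antiviral enzyme viperin, dropped from 1125, 601 and 1703 CPM to 152, 125 and 69.5 CPM (log2 fold change -3.31 ± 0.40, adjusted p = 0.00025). Usp18, which removes the ubiquitin-like tag Isg15 from proteins, dropped from 380, 243 and 495 CPM to 54.6, 44.3 and 36.9 CPM (-3.04 ± 0.25). Isg15 itself, printed above and picked out after its values were seen like Ifit1 and Irf7, dropped from 397, 309 and 586 CPM to 71.7, 48.6 and 41.7 CPM (-3.0 ± 0.27). Ifit1, a sensor of foreign RNA ends, fell by 2.77 and Ifit3b by 3.46 on the log2 scale, and Ifit3b is a close copy of Ifit3. The d6 tumors varied among themselves in the same order for each of these genes, with replicate 3 the highest and replicate 2 the lowest.

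The smallest called falls were those of Isg20 (-1.25), Oas3 (-1.27) and Ifi44l (-1.31). Irf7, a transcription factor that amplifies interferon production, fell by 1.77. The summed level of the list was 9909 to 15749 CPM at d6 and 3910 to 4507 CPM at d14. The d10 tumors stood at 3188 to 4374 CPM, and among them the 3 of the same library set as d6 stood at 3188, 3262 and 4374 CPM.

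Genes of interferon gamma, the interferon of lymphocytes, moved less. Of 27 tested members 5 were lower at d14 and none higher, with a median of -0.35 (3 to 5 lower over the alternatives, and 2 higher with the library set term). Ifng itself dropped from 33.4, 22.1 and 29.6 CPM to 8.42, 4.44 and 6.29 CPM (-2.15 ± 0.24, adjusted p = 0.00017). The chemokine Cxcl10, which type I interferon also induces, fell by 2.56 and the feedback inhibitor Socs1 by 1.63. Cxcl9, a chemokine for activated T cells, fell from 743 to 882 CPM at d6 to 308 to 448 CPM at d14 (-1.08 ± 0.14), and its value was -0.92 without d14 replicate 2, short of 2-fold. The most abundant member, the GTPase Gbp2, was at -0.63 ± 0.13.

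In antigen presentation, class I genes shifted down in small steps. Of 21 class I members 2 were lower and none higher (median -0.53), and 18 of the 21 had all d14 tumors below all d6 tumors. The 2 were the immunoproteasome subunit Psmb10 (-1.25 ± 0.12) and the proteasome activator Psme1 (-1.09 ± 0.09). B2m, the shared light chain of class I molecules, went from 7284, 6616 and 6028 CPM to 4531, 4261 and 3781 CPM, at -0.66 ± 0.11 short of 2-fold. The library set term gave 7 lower class I members. Of 13 class II members 2 were higher and none lower (median 0.24): Ciita, the master regulator of class II genes, from 51.6 to 53.7 CPM up to 90.9 to 177 CPM (1.30 ± 0.20), and H2-DMb2, a peptide loading chain, which was at 1.24 ± 0.15 and at -0.04 with the library set term. Cd74, the invariant chain, did not separate the days, with 1989 to 2061 CPM at d6 and 1776 to 2853 CPM at d14.

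Most called genes of eosinophils and type 2 immunity were lower at d14. Of 21 tested members of the list for eosinophils, mast cells and type 2 cytokines 10 were lower at d14 and 2 were higher, with a median of -0.83. The median was -1.95 without d6 replicate 1 and -1.77 to -2.06 without any one d14 replicate, with 22 members tested and 11 lower in each. The library set term gave counts of 10 and 3 and a median of -1.56, and when every library had to hold 10 or more counts of a gene 5 were lower. The lower genes cover the recruitment, the survival and the products of eosinophils. The type 2 cytokines, named after their values were seen, were low in level: Il13 stood at 3.53, 2.59 and 2.35 CPM at d6 and at 0.311, 0.131 and 0.0399 CPM at d14 (-4.18 ± 0.55, adjusted p = 0.00037). Il4 dropped from 0.777, 0.632 and 0.725 CPM to 0.0406, 0.0392 and 0.0499 CPM (-3.97 ± 0.36), and Il5, the eosinophil growth factor, fell by 3.71. Il5 was not called with the library set term, at -2.31.

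On the receiving side, the interleukin-5 receptor Il5ra fell by 3.78 and the eosinophil lectin Siglecf dropped from 4.53, 4.52 and 6.24 CPM to 0.772, 0.522 and 0.579 CPM (-3.03 ± 0.25). The eosinophil ribonuclease Ear2 dropped from 12, 7.66 and 7.55 CPM to 0.515, 0.313 and 0.559 CPM (-4.28 ± 0.30). Ear6 had at most 2 counts in a d14 library and was at least 36.2-fold lower there, against the level that 3 counts per library give. Ear genes are close copies, so their separate values are uncertain. The eotaxin Ccl11, made by stromal cells, fell by 3.19, alongside Ccl24 above. The mast cell tryptase Tpsab1 went the other way, from 0.844, 1.07 and 0.644 CPM to 5.99, 2.63 and 2.4 CPM (2.10 ± 0.39), and the second higher gene was its close copy Tpsb2, not called without any one d6 replicate or without d14 replicate 1 (0.65). Summed over the list, the d6 tumors stood at 379 to 508 CPM, the d10 tumors at 178 to 284 CPM and the d14 tumors at 152 to 192 CPM. Alox15 alone held 222 to 341 CPM at d6, 9.7 to 34.4 CPM at d10 and 3.11 to 10.4 CPM at d14. The fall of the sum is therefore mostly that of Alox15 and does not describe the other members.

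Called genes of resident peritoneal macrophages were all lower at d14. Of 20 tested members 9 were lower and none were higher, with a median of -0.83. With the library set term 6 were lower and 1 higher, with a median of -0.47. The summed level overlapped between the days, at 2656 to 3190 CPM at d6 and 2460 to 3357 CPM at d14. Timd4, a receptor for dying cells on resident macrophages, dropped from 90.9, 93.1 and 94.5 CPM to 19, 17 and 29.4 CPM (-2.09 ± 0.18, adjusted p = 6.9e-05). Coagulation factor V (F5) and the lubricant Prg4, both strongly expressed by these cells, fell by 3.32 and 3.33 on the log2 scale. Prg4 was at -0.43 and not called with the library set term, and F5 was at -1.5. The scavenger protein Cd5l (-2.76) and the adhesion molecule Icam2 (-2.27), named after their values were seen, were called lower in that fit as well. The most abundant member, fibronectin (Fn1), stood at 1208 to 1373 CPM at d6 and 1582 to 2250.1 CPM at d14 (0.46 ± 0.14). Alox15 and its fall count in this list, in the eosinophil list and in the list of inflammatory cytokines and eicosanoid enzymes.

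**Figure D3:**
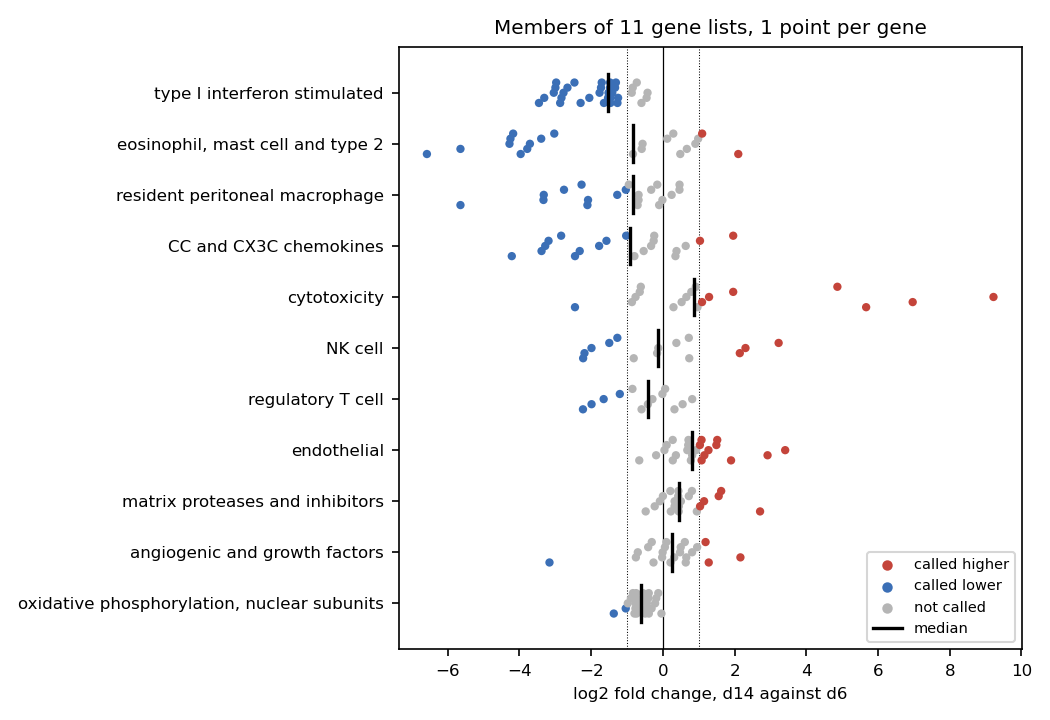
Log2 fold change at d14 against d6 (horizontal axis) of every tested member of 11 gene lists, 1 point per gene, colored by whether it was called higher, called lower or not called, with the list median as a black bar and dotted lines at 2-fold. All 33 type I interferon stimulated genes lie below 0, and the 4 points farthest to the right are the granzymes Gzmf, Gzmg, Gzmd and Gzme.

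CC and CX3C chemokines followed the same side. Of 20 tested members 10 were lower and 2 higher, with a median of -0.91. Ccl20, which attracts Ccr6-bearing cells, dropped from 8.35, 6.2 and 6.48 CPM to 0.948, 0.927 and 0.309 CPM (-3.28 ± 0.39, adjusted p = 0.00023). Ccl17 and Ccl22, both ligands of Ccr4 on regulatory and type 2 T cells, fell by 3.38 and 2.45. The monocyte attractants Ccl12 (-2.84), Ccl7 (-1.78) and Ccl2 (-1.57), named after their values were seen, fell together, Ccl2 from 107, 80.6 and 143 CPM to 45.5, 40.8 and 24.8 CPM. Ccl5, which activated T cells secrete, rose from 18.5, 16.3 and 24.2 CPM to 87.2, 27.3 and 115 CPM (1.96 ± 0.43), with d14 replicate 2 well below the other two. Ccl6, the most abundant member, was at -0.33 ± 0.13. The d10 tumors had the highest sums, at 1508 to 2576 CPM, against 1390 to 1496 CPM at d6 and 904 to 1149 CPM at d14.

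Dendritic cell genes gave 7 lower and 0 higher of 18 tested (6 to 9 lower over the alternatives), with a median of -0.74. Batf3, needed for cross-presenting dendritic cells, dropped from 9.77, 9.04 and 10.1 CPM to 2.09, 1.53 and 2.42 CPM (-2.26 ± 0.20). The homing receptor Ccr7 fell by 1.66, and the list shares Ccl17 and Ccl22 with the chemokines.

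T cell genes did not move as one. Of 28 members of T cell receptor signaling 6 were higher and 3 lower, with a median of 0.28 (0.11 without d14 replicate 3 and 0.48 without d14 replicate 2). The CD8 chains rose: Cd8a from 7.29, 7.52 and 7.29 CPM to 42.3, 27.9 and 50.9 CPM (2.46 ± 0.20, adjusted p = 5.3e-05) and Cd8b1 by 1.83. Cd3g, named after its values were seen, rose by 1.51, and the interleukin-7 receptor Il7r by 1.92. Cd4 went down, from 10.8, 8.92 and 10 CPM to 3.21, 2.1 and 4.53 CPM (-1.59 ± 0.26, adjusted p = 0.0011), as did the adapter Lcp2 (-1.30), which many myeloid cells also use. The d10 tumors lay above both days for Cd8a, at 55.7 to 78.9 CPM, and at 5.71 to 10.2 CPM for Cd4. Summed over the list, d6 stood at 424 to 439 CPM, d10 at 884 to 1051 CPM and d14 at 337 to 582 CPM.

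Regulatory T cell genes were lower where they were called, 4 of 13, with none higher and a median of -0.42. The list did not fall as a whole, with 9 members below 0 and 4 above. Its summed level was higher at d14, at 555 to 649 CPM against 455 to 540 CPM at d6, and stood at 649 to 859 CPM at d10. Foxp3, the lineage factor, dropped from 6.2, 5.17 and 5.84 CPM to 0.88, 0.914 and 1.85 CPM (-2.23 ± 0.30, adjusted p = 0.00044). The costimulatory receptor Tnfrsf4 (OX40) fell by 1.65 and the suppressive cytokine Il10 by 1.99. The 4 held in the fit with the library set term, which also called 1 member higher.

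Cytotoxicity genes rose in part. Of 18 tested members 7 were higher and 1 lower, with a median of 0.86, and 6 to 10 were higher over the alternatives. Beside the 4 granzymes above, perforin (Prf1), which opens the target membrane, rose from 37.2, 42.7 and 33.5 CPM to 109, 70.7 and 97.6 CPM (1.29 ± 0.16, adjusted p = 0.00028). Gzmb, the granzyme of activated killer cells, stood at 126, 132 and 130 CPM at d6 and 103, 68.8 and 76.8 CPM at d14 (-0.64 ± 0.14), short of 2-fold. Gzmc, a neighbour of these 4, rose by 1.09 ± 0.24, and was not called with the library set term or without d6 replicate 3 (0.89) or d14 replicate 1 (0.90). Gzma was the lower member, from 60.7, 45.3 and 41.8 CPM to 12.8, 4.7 and 9.49 CPM (-2.45 ± 0.32). At d10 Gzmb reached 236 to 380 CPM, above all tumors of both other days.

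NK cell genes split by receptor. Of 14 tested members 3 were higher and 5 lower, with a median of -0.14. The 3 were Klrc1, Klrc2 and Klrd1, the NKG2A, NKG2C and CD94 chains that NK cells share with activated CD8 T cells. Klrc1 rose from 0.933, 1.11 and 1.17 CPM to 10.7, 7.48 and 11.9 CPM (3.23 ± 0.23, adjusted p = 3.4e-05). Ncr1, the NKp46 receptor that defines NK cells, dropped from 7.15, 6.02 and 6.98 CPM to 1.84, 0.94 and 1.53 CPM (-2.22 ± 0.25). The receptor Klra3 and the chemokine Xcl1 fell by 2.19 and 1.99. The fit with the library set term gave 4 higher and 3 lower, all 6 genes named here among them.

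Of the inhibitory receptors and exhaustion genes 4 of 18 were higher and none lower, with a median of 0.38. Pdcd1, which encodes PD-1, rose from 3.15, 4.34 and 4.61 CPM to 20.5, 14.4 and 28.2 CPM (2.38 ± 0.26, adjusted p = 0.00015), and Havcr2 is given above. The transcription factors Tox and Nr4a2, both tied to chronic stimulation, rose by 1.59 and 1.27. Tox was at 0.81 with the library set term, short of 2-fold. At d10 Pdcd1 stood at 24.2 to 47.5 CPM and Havcr2 at 33.5 to 56.1 CPM. Among 13 ligands of such receptors 1 was higher and 3 lower (median -0.21, with 1 lower and a median of 0.01 without d14 replicate 2): the adenosine-producing enzyme Nt5e (CD73) rose by 2.47 and Lgals9, a ligand of TIM-3, fell by 1.56.

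**Figure D4:**
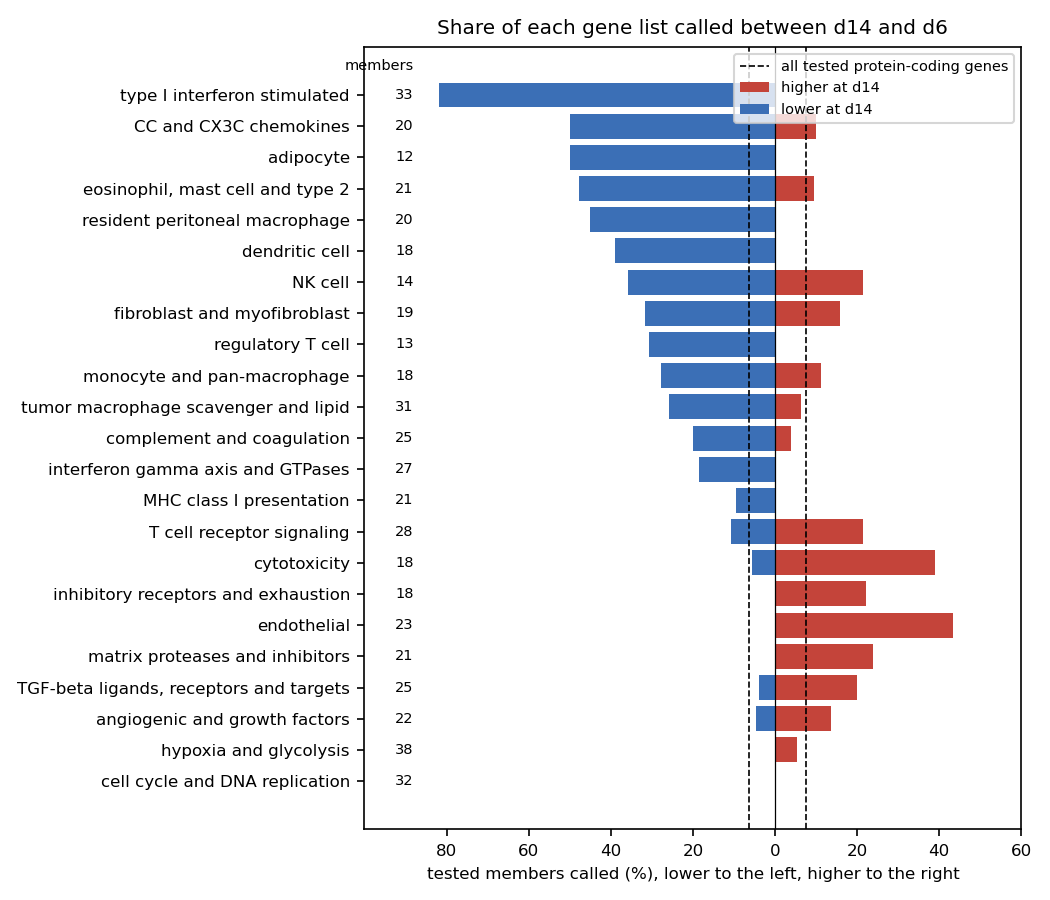
Percent of tested members of each gene list called lower (bars to the left) or higher (bars to the right) at d14, with the number of tested members and dashed lines at the shares over all tested protein-coding genes (6.4% lower, 7.67% higher). Type I interferon stimulated genes have the longest bar to the left and endothelial genes the longest to the right.

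Macrophage genes went in both directions. Of 18 monocyte and pan-macrophage genes 5 were lower and 2 higher, with a median of -0.64, and of 31 tumor macrophage genes 8 were lower and 2 higher, with a median of -0.20. Adgre1 (F4/80) dropped from 84.1, 125 and 79.7 CPM to 38, 28.9 and 52.8 CPM (-1.27 ± 0.23, adjusted p = 0.002). The signaling chain Fcer1g (-1.56) and the cytoskeletal Aif1 (-1.54) fell as well, and with the library set term they were at -0.73 and -0.98, short of 2-fold. Folr2, found on tissue-resident macrophages, fell by 1.49, and the fusion gene Ocstamp of osteoclast-like giant cells by 2.40. Csf1r, the receptor for the macrophage growth factor, did not separate the days, with 177, 198 and 177 CPM at d6 and 160, 99.4 and 209 CPM at d14.

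The 4 higher genes of these lists were Cx3cr1, Abca1, Apoe and the membrane protein gene Ms4a7 (1.11 ± 0.23). Ms4a7 was not called with the library set term, without d6 replicate 1 (0.99) or without d14 replicate 3 (0.91). Cx3cr1, the fractalkine receptor, went from 0.4, 0.868 and 0.805 CPM to 7.23, 5.03 and 9.73 CPM (3.4 ± 0.35, adjusted p = 0.00012). The cholesterol exporter Abca1 went from 15.7, 16.9 and 11.5 CPM to 97.4, 62.3 and 91.7 CPM (2.51 ± 0.20), and the lipid carrier Apoe rose by 1.69. For the abundant secreted proteins Spp1 (0.46 ± 0.20) and Lyz2 (-0.11 ± 0.22) the fit gave no call.

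Of 25 complement and coagulation genes 5 were lower and 1 higher (median -0.19). The higher gene was F13a1, a coagulation factor of monocytes and macrophages, from 23.3, 17.9 and 23.4 CPM to 71.7, 69.4 and 70.6 CPM (1.71 ± 0.11). The 3 chains of complement C1q stand in the macrophage list and were picked out after their values were seen. C1qb dropped from 291, 283 and 323 CPM to 145, 98.6 and 152 CPM (-1.18 ± 0.15), next to C1qa (-1.11) and C1qc (-1.17). Without d14 replicate 2 C1qa was at -0.91 and C1qc at -0.95, and with the library set term C1qb was at -0.74, all short of 2-fold. C3 overlapped between the days, at 822 to 1037 CPM and 609 to 1415 CPM.

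Of 23 neutrophil genes and their chemokines 4 were lower and 2 higher (median -0.52, but -0.09 without d6 replicate 2 and -0.21 without d14 replicate 1). The chemokine receptor Cxcr2 fell by 2.32 and its ligand Cxcl1 by 1.74, and both were short of the limits with the library set term, at -0.27 and -0.64. The lectin receptor Clec4d rose by 1.95. Inflammatory cytokine and eicosanoid genes gave 6 lower and 3 higher of 25 (median -0.25), with 1 higher without d6 replicate 3. Alox5, the first enzyme of leukotriene synthesis, dropped from 10.6, 13.8 and 13.6 CPM to 3.68, 2.33 and 2.42 CPM (-2.18 ± 0.22), and Il18 fell by 1.73. Il11, a stromal cytokine of the IL-6 family, rose by 2.07. Il1b went from 30, 33.8 and 29.9 CPM to 79.2, 99.8 and 33.2 CPM (1.18 ± 0.32), a rise that d14 replicate 3 hardly shows and that was 0.86 without d14 replicate 2 and 1.14 without either d6 replicate 1 or 3, none of which was called. Its natural antagonist Il1rn stood far higher, at 666 to 843 CPM and 342 to 512 CPM (-0.78 ± 0.16).

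B and plasma cell genes gave 4 lower of 20 and none higher (median -1.02), a count that rested on single tumors. It was 1 without any one d6 replicate, 2 without d14 replicate 2 and 12 without d14 replicate 3. It was 10 with the library set term. The summed level overlapped between the days, at 460 to 601 CPM and 546 to 596 CPM. Jchain, which links secreted antibodies, was the clearest member, from 151, 202 and 199 CPM to 51.1, 19.7 and 45.8 CPM (-2.24 ± 0.31).

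**Figure D5:**
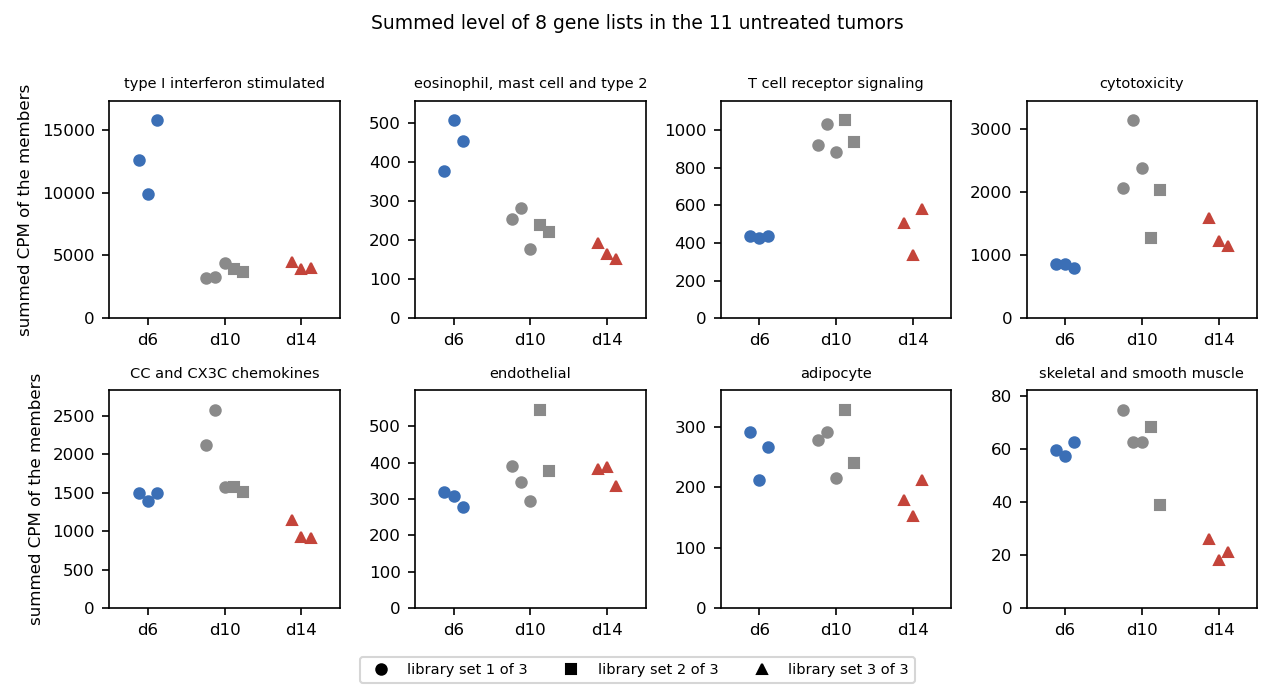
Summed CPM of the members of 8 gene lists (vertical axes, from 0) in the 11 untreated tumors by day, 1 point per tumor, with the marker shape giving the library set of 3. The type I interferon sums drop from 9909 to 15749 CPM at d6 to 3188 to 4507 CPM over the d10 and d14 tumors, and the T cell receptor signaling sums are highest at d10, at 884 to 1051 CPM. In the eosinophil panel Alox15 alone gives 222 to 341 CPM at d6 and 3.11 to 10.4 CPM at d14.

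Endothelial genes were higher at d14 where they were called, and fewer were called with the library set term. Of 23 tested members 10 were higher and none lower, with a median of 0.82. Esm1, a secreted protein of sprouting tip cells, went from 0.844, 0.987 and 0.503 CPM to 4.43, 16.4 and 4.04 CPM (3.41 ± 0.58, adjusted p = 0.0014), with d14 replicate 2 the highest. The tight junction gene Cldn5 rose by 2.92 and the sialomucin Emcn by 1.90, and these 3 were the ones called higher with the library set term. In that fit the list median was 0.05 and Tie1, an endothelial receptor kinase, went from 1.08 to -0.31. Tie1 was also at 0.92 without d6 replicate 2. Cdh5, the endothelial cadherin, rose by 1.16, and by 0.98 without d14 replicate 2. The pan-endothelial Pecam1 stayed level at 54.6, 49.9 and 38.7 CPM against 55.7, 46.9 and 45 CPM (0.04 ± 0.14). The list summed to 279 to 319 CPM at d6 and 337 to 389 CPM at d14, within the 294 to 545 CPM of the d10 tumors.

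Among 8 pericyte genes 2 were higher, among them Mcam (1.48 ± 0.17, and 0.80 with the library set term), and among 3 lymphatic endothelial genes 1 was lower. Of 22 angiogenic and growth factors 3 were higher and 1 lower (median 0.26). Igfbp3, an insulin-like growth factor carrier, rose from 60.9, 72.8 and 56.6 CPM to 253, 360 and 239 CPM (2.16 ± 0.17, adjusted p = 4.5e-05). The EGF receptor ligand Ereg and the fibroblast growth factor Fgf2 rose by 1.28 and 1.19. Another carrier, Igfbp2, fell by 3.16. Vegfa went from 194, 229 and 194 CPM to 402, 481 and 313 CPM, at 0.96 ± 0.15 just short of 2-fold. It passed without d6 replicate 2 (1.04) and without d14 replicate 3 (1.12). The VEGF receptor Flt1 was at -0.66 ± 0.11.

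Of 25 TGF-beta ligands, receptors and targets 5 were higher and 1 lower (median 0.26). Inhba, which encodes the activin A subunit, rose from 31.5, 28.9 and 27.9 CPM to 150, 133 and 72.6 CPM (2.01 ± 0.23, adjusted p = 0.00021). Ltbp2, a matrix protein of the latent TGF-beta binding family, went from 3.09, 2.68 and 3.42 CPM to 22.1, 15.3 and 17.4 CPM (2.57 ± 0.18). The lower gene was the ligand Tgfb2 (-1.03 ± 0.18), which was short of 2-fold without d6 replicate 3 (-0.99), without d14 replicate 2 (-0.86) and with the library set term (-0.87).

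Fibroblast genes divided. Of 19 fibroblast and myofibroblast genes 6 were lower and 3 higher (median 0.14). Periostin (Postn) dropped from 168, 135 and 146 CPM to 36.3, 30.9 and 33.5 CPM (-2.15 ± 0.11, adjusted p = 1.1e-05). The contractile Acta2 dropped from 79.5, 70.7 and 94.4 CPM to 24, 20.9 and 20.3 CPM (-1.91 ± 0.12), and Pi16, a marker of adventitial fibroblasts, fell by 2.0. Fibulin 2 (Fbln2), an elastic fiber protein, rose from 272, 311 and 270 CPM to 825, 822 and 665 CPM (1.44 ± 0.11).

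Of 17 collagens 1 was higher and 1 lower (median 0.24), Col12a1 at 1.98 ± 0.15 and Col6a2 at -1.39 ± 0.17. The bulk collagens were not called, with Col1a1 at 776, 802 and 816 CPM against 792, 413 and 554 CPM and Col3a1 at -0.27 ± 0.16. Of 21 matrix proteases and inhibitors 5 were higher and none lower (median 0.44). The stromelysin Mmp10 rose by 2.71 and the gelatinase Mmp2 from 6.42, 6.75 and 7.59 CPM to 27.2, 16.1 and 17.8 CPM (1.56 ± 0.20). The macrophage elastase Mmp12 rose by 1.15 ± 0.23, and by 0.93 without either d6 replicate 3 or d14 replicate 1. With the library set term 8 were higher, and without d14 replicate 1 there were 3.

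Markers of several host tissues next to the tumor were checked. Of 12 adipocyte genes 6 were lower (median -1.77), led by Ucp1 (-4.12) and with the perilipin Plin1 (-2.79) and the hormone Adipoq (-2.70) among them. Adipoq stood at 4.06, 1.24 and 2.31 CPM at d6 and 0.257, 0.666 and 0.249 CPM at d14. Of 11 skeletal and smooth muscle genes 3 were lower, among them the smooth muscle myosin Myh11 (-2.08 ± 0.23) and the filament protein Des (-1.61 ± 0.16). The muscle list summed to 57.4 to 62.7 CPM at d6 and 18 to 26.1 CPM at d14, and the liver list to 45.9 to 55.7 CPM and 4.5 to 8.08 CPM. Of 4 tested liver genes 3 were lower, among them Gc above and the iron carrier Trf (-1.67 ± 0.25), which went to 1.71 and was called higher with the library set term. With that term the liver list gave 2 lower, 1 higher and a median of 0.45, against -1.5 without it, and its d10 sums were 15.1 to 31.3 CPM in set 1 and 5.52 to 9.32 CPM in set 2. Of 4 intestine genes 2 were lower and 1 higher, and of 7 red blood cell and 2 pancreas genes none was called. Of 4 nerve genes 1 was lower, but in only 1 of the 6 fits that leave out a library, and the nerve list summed to 32.2 to 35.3 CPM at d6 and 43.6 to 57.4 CPM at d14. Between d6 and d14 these adipocyte, muscle and liver values fell, as did Acta2, Postn and called genes of resident macrophages and eosinophils. At d10 the adipocyte list summed to 216 to 328 CPM, against 212 to 292 CPM at d6, and the muscle list to 38.7 to 74.6 CPM. The eosinophil list stood at 178 to 284 CPM at d10, against 379 to 508 CPM at d6. The part of adjoining host tissue in the other falls was not tested.

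Of 17 mesothelial and mesothelioma genes 2 were higher and 2 lower (median 0.10). Single tumors moved these counts, to 2 and 0 without d6 replicate 1, 4 and 2 without d14 replicate 2, and 2 and 4 with a median of -0.22 without d14 replicate 3. Msln, the mesothelioma antigen mesothelin, rose from 175, 212 and 204 CPM to 407, 632 and 492 CPM (1.37 ± 0.16, adjusted p = 0.00019), and was at 0.46 and not called with the library set term. Wt1, a mesothelial transcription factor, stood at 18.6, 14.2 and 18.5 CPM and at 12.9, 7.81 and 14 CPM (-0.56 ± 0.21, adjusted p = 0.053). Upk1b, a uroplakin of mesothelium and urothelium, fell by 1.69 ± 0.49, and was not called with the library set term or without d6 replicate 1 (-1.34) or d14 replicate 1 (-1.60).

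None of 32 cell cycle and replication genes was called (median -0.13). The proliferation marker Mki67 went from 333, 248 and 340 CPM to 561, 592 and 573 CPM, at 0.91 ± 0.12 short of 2-fold and at 1.33 with the library set term, while the mitotic enzyme Top2a stood at -0.14 ± 0.08. Of 38 hypoxia and glycolysis genes 2 were higher and none lower (median 0.09). They were carbonic anhydrase 9 (Car9, 1.45 ± 0.16, and 0.87 with the library set term) and Eno2 (1.33 ± 0.15), an enolase. The abundant glycolytic enzyme Pkm stood at 3215 to 3547 CPM and 3391 to 3887 CPM (0.14 ± 0.09).

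Of 20 unfolded protein and integrated stress response genes 1 was lower, Chac1 (-1.29 ± 0.17), which degrades glutathione, and 15 had all d14 tumors below all d6 tumors (median -0.55). The chaperone Hspa5 dropped from 1823, 2062 and 1914 CPM to 1137, 1229 and 1122 CPM (-0.73 ± 0.09), short of 2-fold. Of 26 nuclear genes of oxidative phosphorylation 2 were lower, and all 26 were below 0 (median -0.62, and -0.48 with the length offset). Their median summed exon length was 2101 bases, inside the shortest length class. Atp5o, an ATP synthase subunit, was the lowest (-1.37), and stood at -0.09 with the library set term. The more abundant Atp5b was at -0.31 ± 0.09.

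Genes of the mitochondrial genome gave 5 lower of 12 (median -0.90), and with the library set term 4 higher, none lower and a median of 0.71. The count of 5 was 1 without d6 replicate 1, 1 without d14 replicate 3, 7 without d14 replicate 1 and 1 with the length offset. Nd1 and Nd2 of complex I, mt-Nd1 and mt-Nd2, were at -1.02 and -1.05, and at 0.32 and 0.38 with that term, while mt-Co1 stood at 0.25 ± 0.12. Ribosomal protein genes gave 2 higher and 1 lower of 36 (median -0.22): Rpl13 (1.06), Rps4x (1.07) and Rpl19 (-1.19). The list leaves out some members. Of all 52 tested genes with symbols that start with Rpl, 1 was higher and 7 were lower (median -0.26). Their median length of 1754.5 bases lies inside the shortest length class, where 14.8% of genes were lower. With the library set term Rpl13, Rps4x and Rpl19 were at -0.56, -0.28 and 0.43, each in the opposite direction, and the cause was not tested. Without d6 replicate 3 Rps4x was at 0.99. Leaving out d6 replicate 1 or d14 replicate 3 brought mt-Nd1 to -0.88 and -0.90 and mt-Nd2 to -0.92 and -0.92. Without d14 replicate 2 mt-Nd1 was just inside 2-fold. Of 24 cholesterol and fatty acid genes 1 was higher, the desaturase Scd2 (1.12 ± 0.12, and 0.99 without d6 replicate 3), of 17 p53 targets 1 was higher and 1 lower, and of 22 immediate early and heat shock genes and 12 histones none was called.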

How the data were processed

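RNA sequencing was done on whole untreated AB12 tumors, 3 collected at d6, 5 at d10 and 3 at d14, with 6 anti-CTLA4 treated tumors used in 1 alternative fit. The authors made the deposited counts per gene by alignment to GRCm38 with TopHat2 2.0.14, keeping uniquely mapped reads, and counting with HTSeq on Gencode vM21. Their later removal of genes with a batch effect between sequencing projects was not repeated here. The strand setting of the counting is not given in the sources used here, so overlapping genes may share reads.

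From the counts, edgeR 4.0.16 (filterByExpr, TMM scaling, quasi-likelihood test) was fitted on the 6 libraries of d6 and d14 over 17172 genes, with Benjamini-Hochberg adjustment over all of them. A gene was called where the adjusted p was under 0.05 and the log2 fold change beyond 1 in either direction. DESeq2, which the authors used, was 1 of 17 alternatives (version 1.42.0). CPM are TMM-scaled. The values beside d10, and list sums, were scaled over the 11 untreated libraries. Protein-coding genes are those of Gencode vM21. Replicate libraries differed well beyond counting noise (chi-square per gene 18.5 to 89.3), so each counts as 1 replicate.

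Named genes were the 10 largest changes each way among called genes with a mean of at least 10 CPM and no overlap between days. From each of 46 gene lists came all called members up to 5, otherwise the 3 highest and 3 lowest, with the most abundant member, plus a short set always named. Members and lists were chosen with earlier results of these data known, so lists get counts and medians and no test. The rule gave 218 genes, of which 151 are described. Genes matched RefSeq promoters by symbol.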

Additional observations from a re-analysis of the deposited data

Results flagged for a closer look

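The summed level of pancreas acinar genes in d10 replicate 2 was 3.18 CPM, against 2.28 CPM in the next highest of the 5 d10 tumors, a gap that takes 0.71 of the group's range. It was the only one of 46 list sums set apart in this way, and chance sets apart about 1 in 20 such groups. The d6 and d14 tumors, which carry the comparison, stood at 1.81 to 2.22 CPM and 2.01 to 3.0 CPM.

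Outside the protein-coding genes, 1291 of 3104 tested genes (41.6%) were called between d14 and d6, against 14.1% of protein-coding genes. Immunoglobulin variable genes gave 56 lower and 0 higher of 108 tested. Processed pseudogenes gave 159 higher and 131 lower of 520 and long intergenic RNAs 135 higher and 96 lower of 651. Pseudogene and small RNA levels also defined the library sets, which follow the day.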

How the results depend on the processing

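Over the 17 alternatives the count of higher genes ranged from 832 to 1357 and that of lower genes from 705 to 992, all within 1.5 times of 1079 and 900. Leaving out 1 library gave 1030 to 1107 higher and 831 to 992 lower genes. DESeq2 called 1074 higher and 933 lower, and library sizes without TMM 1293 and 762, with the median of all genes moved by 0.08. The replicate numbers do not pair the tumors, which came from different mice (same-number correlations of deviations 0.09, 0.00 and 0.10), and the replicate block gave 1063 higher and 929 lower genes. The length offset, added after seeing the data, called 972 higher and 810 lower genes, of which 858 (79.5%) and 716 (79.6%) were shared with the counts above.

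Of 170 genes described by name, 131 kept their call under every alternative and 18 changed it when 1 library was left out. With the library set term 32 changed call or direction. Of these the direction changed for H2-DMb2 (-0.035), Tie1 (-0.31), mt-Nd1 (0.32), mt-Nd2 (0.38), Rpl19 (0.43), Rpl13 (-0.56), Rps4x (-0.28) and Trf (1.71), and that term changed the sign of 11 of 46 list medians. The cause was not tested. Leaving out 1 library changed the sign of up to 3 list medians (3 without d6 replicate 2, 2 without d14 replicate 2, 2 without d14 replicate 3 and 1 without d14 replicate 1) and moved up to 8 by more than the spread between replicates. No d6 and d14 library shared a library set, so set and day cannot be told apart beyond what the d10 tumors give.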

Other observations

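Some gene families had most of their calls in 1 direction, and they were picked out after their values were seen. Over all tested protein-coding genes 7.67% were higher and 6.4% lower. Of 11 tested axonemal dynein heavy chains (Dnah genes), very long genes of moving cilia, 6 were higher at d14 and none lower, with a median log2 fold change of 1.77 and a median summed exon length of 14968 bases. Of 11 cadherins (Cdh genes), adhesion molecules of cell junctions, 5 were higher and none lower, with a median of 0.96. Of 352 zinc finger genes (Zfp genes) 26 were higher and 3 lower, so their share of higher genes was close to that of all genes. The PYHIN and other Ifi genes, inducible by interferon, gave 13 lower of 18 and none higher, with a median of -1.5. Of 48 large-subunit genes of the mitochondrial ribosome (Mrpl genes), short genes with a median of 2542 bases, 5 were lower and none higher. Among all tested protein-coding genes 14.8% of the shortest length class and 6.5% of the next were lower. Of 18 clustered protocadherins of the beta group (Pcdhb genes), neuronal adhesion molecules, 11 were higher and none lower, with a median of 1.18 and a median length of 3714 bases, and of 8 of the gamma A group (Pcdhga genes) 4 were higher and none lower. The part of the length trend given above in these values was not tested.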
